A study of Homo sapiens with 8 samples.

Results

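The ULK1 complex is the protein kinase complex that starts autophagy, and the peaks described here are those at its genes ULK1, ULK2, ATG13, RB1CC1 and ATG101, which are 5 of the 19812 protein-coding genes of the annotation. The genes were chosen as a list by name, and a peak belonged to a gene when its centre lay inside the gene or within 50 kb of it. ChIP-Seq for DAXX, a transcriptional co-repressor and histone chaperone, for DNMT1, the maintenance DNA methyltransferase, and for histone H3 marked at Lys4 was performed in PC3, a human prostate cancer cell line established from a metastasis to bone. With 2 kinds of cells this gave 6 peak lists of 1 library each, and the input libraries of both cells were used by the authors as background. WT denotes the control cells, which the labels call wild type while the methods name either untransduced cells or cells with a non-targeting shRNA. K/D denotes a PC3 line with a stable lentiviral shRNA against DAXX in the vector pLKO.1-puro, kept in puromycin, and whether it is a single clone is not given in the sources used here. The histone antibody is labelled DMHH3(Lys4), whose prefix is not spelled out, and is written H3(Lys4) here. No group had a replicate, so no test between WT and K/D cells was possible, and the lists are set side by side with exact binomial 95% intervals that cover counting error only. The peak lists hold no measure of how much DAXX protein the K/D cells retained.

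In autophagy a cell encloses its own cytoplasm in a double membrane and delivers it to the lysosome. ULK1 and its close relative ULK2 are the serine/threonine kinases of the initiating complex, ATG13 links the kinase to the rest of the complex, RB1CC1 (also called FIP200) is the large scaffold, and ATG101 binds ATG13 and stabilises it. When nutrients are plentiful the kinase mTORC1 phosphorylates ULK1 and ATG13 and holds the complex back, while the energy sensor AMPK can activate ULK1. DAXX has no known DNA-binding domain, so a DAXX peak marks chromatin recovered with DAXX, not a base sequence that DAXX reads.

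All 5 genes had DAXX peaks in their windows in both cells, 28 in WT and 20 in K/D, and 15 sites were called in both. None of the WT peaks lay at the promoter of a complex gene, taken as 1000 bp before to 100 bp after a transcription start site (TSS). In K/D cells 1 peak did, and it lay 224 bp before the ULK1 start. The share of all genes with a DAXX peak at their promoter was not computed. Within the wider limit of 2 kb from a start it was 31.5% in WT and 24% in K/D, beside 1 of 5 complex genes in each. The DAXX peaks inside the genes were intronic, namely 2 in ULK1 and 1 each in ATG13, RB1CC1 and ATG101 in WT cells. Histone H3(Lys4) regions stood at the start of all 5 genes in both cells, and a single DNMT1 peak, in WT cells, fell in the 5 windows.

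Sequences of 8 DAXX peaks on which the account below turns are given from the GRCh37 (hg19) genome, plus strand, read 5′ to 3′ and in lower case. They were picked to show the WT-only and K/D-only peaks next to the ULK1 start, kept peaks of ULK1, ULK2 and ATG101, the WT-only peak inside ATG13 and the place where DNMT1 was called. Capitals mark matches on either strand to the motif letters searched in all peaks, which were TGAGTCA or TGACTCA (AP-1), GGGCGG (SP1), TGACCTC or TGACCTT (nuclear receptor half-site) and TGTGGT (RUNX) among those that matched here.
ULK1 intron, WT only, chr12:132380657-132380829: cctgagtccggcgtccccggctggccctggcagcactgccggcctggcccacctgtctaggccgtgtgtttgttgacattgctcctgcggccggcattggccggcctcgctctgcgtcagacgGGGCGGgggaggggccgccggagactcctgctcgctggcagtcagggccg
ULK1 promoter, K/D only, chr12:132378858-132379028: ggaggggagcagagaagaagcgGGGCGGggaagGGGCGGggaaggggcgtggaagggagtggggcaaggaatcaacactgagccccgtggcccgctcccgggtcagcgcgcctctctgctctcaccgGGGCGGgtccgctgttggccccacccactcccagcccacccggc
ULK1 distal intron, WT and K/D, chr12:132397143-132397315: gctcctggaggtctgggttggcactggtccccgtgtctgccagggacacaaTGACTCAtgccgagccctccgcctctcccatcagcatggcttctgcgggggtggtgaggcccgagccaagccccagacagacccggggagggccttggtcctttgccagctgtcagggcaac
ULK1 upstream, WT and K/D, chr12:132356806-132356978: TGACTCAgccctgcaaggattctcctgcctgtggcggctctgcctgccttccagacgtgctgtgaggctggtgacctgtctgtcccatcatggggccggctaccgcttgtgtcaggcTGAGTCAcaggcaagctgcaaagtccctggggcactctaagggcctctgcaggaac
ULK1 downstream, K/D DAXX and WT DNMT1, chr12:132424915-132425085: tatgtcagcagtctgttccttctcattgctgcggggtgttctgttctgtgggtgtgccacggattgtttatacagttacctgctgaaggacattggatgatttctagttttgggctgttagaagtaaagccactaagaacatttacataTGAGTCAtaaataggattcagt
ULK2 upstream, WT and K/D, chr17:19801383-19801555: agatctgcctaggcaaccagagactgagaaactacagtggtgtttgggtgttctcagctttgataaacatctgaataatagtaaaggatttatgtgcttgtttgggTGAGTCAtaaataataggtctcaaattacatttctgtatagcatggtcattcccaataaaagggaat
ATG13 intron, WT only, chr11:46670748-46670920: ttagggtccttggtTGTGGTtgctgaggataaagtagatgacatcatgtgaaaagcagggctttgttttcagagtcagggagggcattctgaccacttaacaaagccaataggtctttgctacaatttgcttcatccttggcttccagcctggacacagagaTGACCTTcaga
ATG101 intron, WT and K/D, chr12:52469211-52469383: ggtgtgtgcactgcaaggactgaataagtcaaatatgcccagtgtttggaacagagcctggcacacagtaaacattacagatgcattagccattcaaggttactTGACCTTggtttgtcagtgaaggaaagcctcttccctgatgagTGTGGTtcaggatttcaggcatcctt

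The intervals of peaks called in both cells are the WT ones. Both peaks next to the ULK1 start hold SP1 letters, 1 match in the WT-only peak and 3 in the K/D-only peak, and no AP-1 letters. The kept intron peak of ULK1, the ULK2 peak and the K/D DAXX peak at the DNMT1 site each hold 1 AP-1 match. At the DNMT1 site the match lies past the end of the DNMT1 peak, which itself holds none of the motif letters. The kept upstream ULK1 peak holds 2 AP-1 matches in its WT interval, and its K/D interval begins after the first of them. The intron peaks of ATG13 and ATG101 each hold a nuclear receptor half-site and a RUNX match.

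The total tags per list ran from 12050101 to 18705056, and DAXX was called at 59761 sites of the main chromosomes in WT cells against 42876 in K/D cells. The share of tags inside peaks was 15.8% in the WT DAXX library and 6.83% in the K/D one, so a peak absent from the K/D list was one not called there and is not shown to be empty. For H3(Lys4) the share was 23.94% in WT and 15.07% in K/D, and for DNMT1 it was 0.26% and 0.07%, so the same limit holds for these lists. The score column held a single value, so position in the list, which HOMER writes in order of strength, served as the rank of a peak. Place is given as a percent of the list, with low values for strong peaks. Distances run from the TSS to the peak centre, or between centres for a pair of peaks, while gaps to H3(Lys4) regions run from edge to edge.

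**Figure D1:**
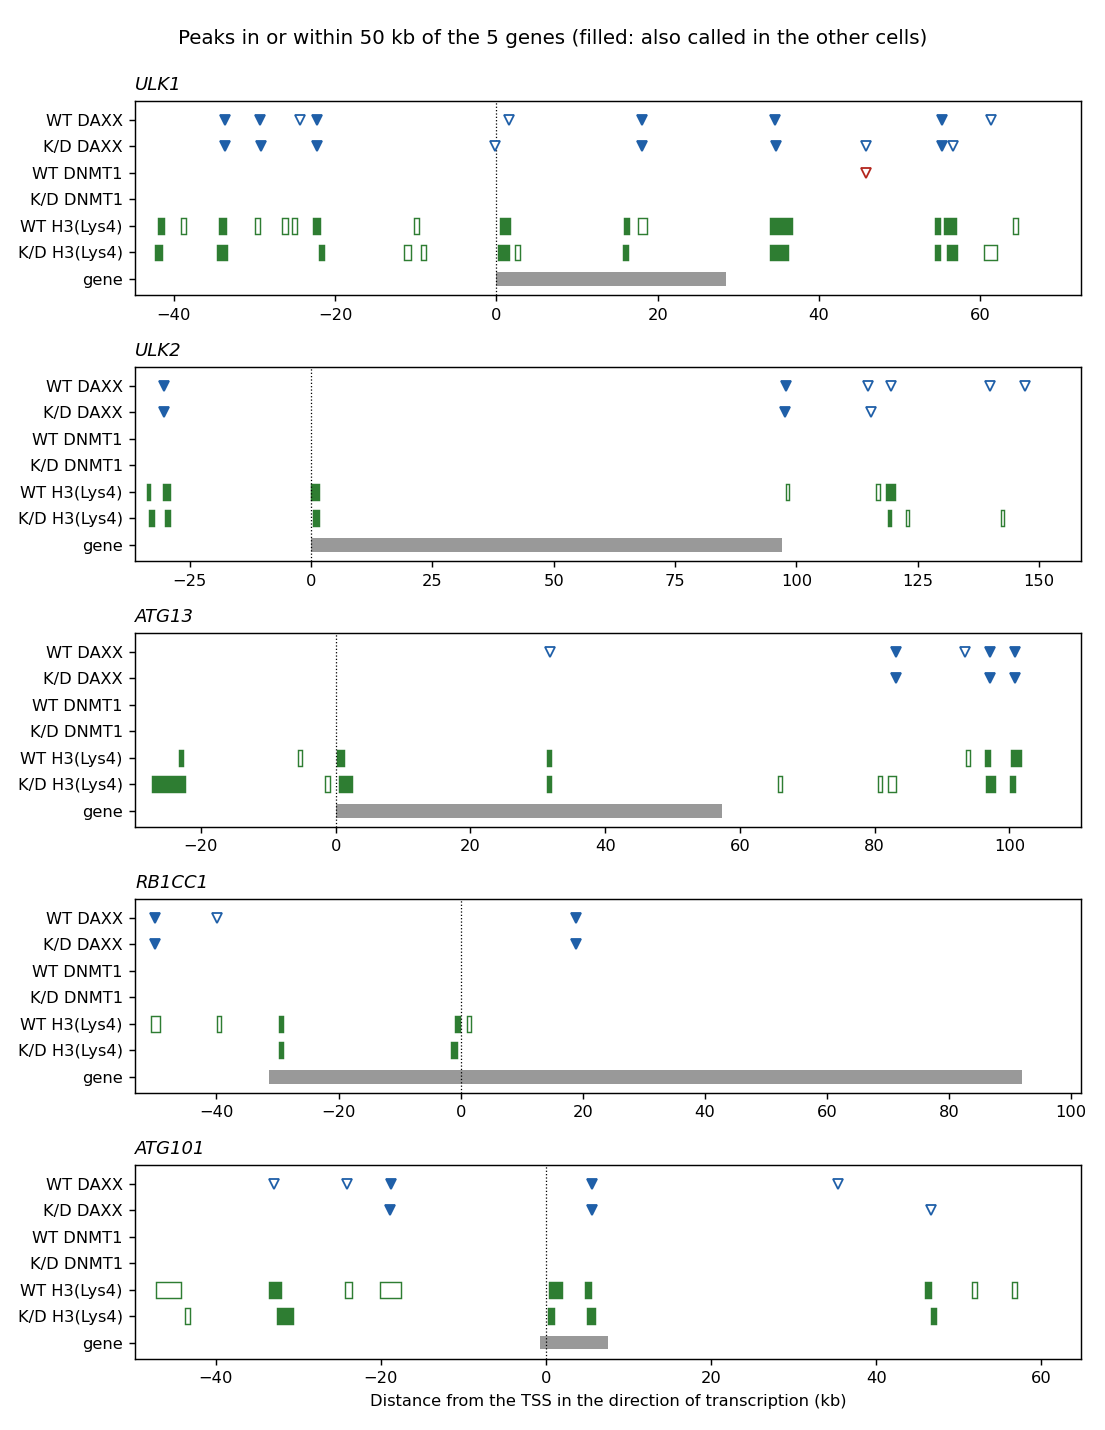
Positions of all peaks in the 5 windows, with the distance from the TSS in the direction of transcription in kb on the x axis and the 6 lists and the gene body (grey) as rows. Triangles are DAXX or DNMT1 peak centres, boxes are H3(Lys4) regions drawn to scale but at least 0.6 kb wide, and filled symbols were called in both cells. ULK1 holds 9 DAXX peaks in each cell, no DAXX peak lies inside ULK2, and an H3(Lys4) region stands at or beside each start.

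ULK1 lies on chromosome 12, plus strand (chr12:132379167-132407695, 28.5 kb), and had the most DAXX peaks of the 5 genes. WT and K/D cells had 9 each in its window, and 6 were called in both. That is 7 peaks per 100 kb, more than in the windows of 92.9% of protein-coding genes in WT and of 98.4% in K/D, where the medians of all genes were 2.52 and 1.72. In the full lists ULK1 was thus the member whose count stayed the same while the others had fewer in K/D cells. The WT list is longer, and WT peaks of ULK2 (places 43897, 53844 and 56389) and RB1CC1 (place 47754) stood past the 42894 places of the K/D list. Without the WT peaks past that length, ULK2 and RB1CC1 also had equal counts in both cells, and ATG13 and ATG101 still had fewer in K/D. Several DAXX peaks of the ULK1 window were nearer to a start of the neighbouring genes MMP17, PUS1 or EP400 than to that of ULK1. Over the 5 windows the member's own start was the nearest for 8 of 28 WT and 5 of 20 K/D DAXX peaks.

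At the ULK1 start the cells differed in which peak was called. In WT cells the nearest peak lay 1576 bp after the TSS in intron 3, at place 34843 (58.3% of the list), and overlapped the H3(Lys4) region called just inside the gene in both cells. No K/D peak overlapped it. The nearest K/D peak lay 224 bp before the TSS at place 30232 (70.5%), 1800 bp from the WT peak between centres, and its edge was 380 bp from that of the nearest H3(Lys4) region of K/D cells. Both peaks came from the weaker part of their lists, and 40.9% (WT) and 48.2% (K/D) of the peaks in the same 10% of the list were called in both cells.

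The other ULK1 intron peak was kept. It lay 18062 bp after the TSS in intron 13, at place 27383 (45.8%) in WT and 13128 (30.6%) in K/D, and the centres differed by 2 bp. In WT cells it was on an H3(Lys4) region of 1118 bp, and in K/D cells no region was called on it, the gap to the nearest being 1662 bp.

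Of 4 WT peaks upstream of ULK1, those at 33625, 29281 and 22275 bp before the TSS were kept and the one at 24386 bp was called in WT only. The kept peak at 22275 bp was the strongest of the gene in WT cells, at place 7688 (12.9%), against place 11855 (27.6%) in K/D. Downstream, peaks at the promoters of PUS1, a pseudouridine synthase, and of EP400, a chromatin remodelling ATPase, were kept. The EP400 promoter peak was the strongest of the ULK1 window in K/D cells, at place 5679 (13.2%), and stood at place 10306 (17.2%) in WT. A WT-only peak lay 61317 bp after the ULK1 TSS in an intron of EP400, and 2 further K/D-only peaks lay in introns of PUS1 and EP400, at 45833 and 56574 bp.

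ULK2 lies on chromosome 17, minus strand (chr17:19674142-19771249, 97.1 kb), and had no DAXX peak inside the gene in either cell. Its window held 6 WT and 3 K/D peaks, of which 2 were called in both. The only peak before the start lay 30220 bp upstream in WT (place 40049, 67%) and 30207 bp upstream in K/D (place 37619, 87.7%). It was on an H3(Lys4) region in WT, and in K/D cells the gap to the nearest region was 77 bp. The other 5 WT peaks lay beyond the end of the gene, and among them the peak 101 bp before the start of ALDH3A1, an aldehyde dehydrogenase, was the strongest of the window (place 16361, 27.4%) and was not called in K/D. A WT peak 114857 bp and a K/D peak 115475 bp after the ULK2 TSS were neighbours 618 bp apart and did not overlap. The kept peak 97771 bp after the TSS was near the end of both lists, at 94.3% and 99.6%.

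ATG13 lies on chromosome 11, plus strand (chr11:46639077-46696368, 57.3 kb). Its only internal DAXX peak, 31684 bp after the TSS in intron 6, was at place 38023 (63.6%) in WT, and no K/D peak was called within 51379 bp of it. An H3(Lys4) region overlapped it in both cells. The other 4 WT peaks lay past the gene, of which 3 were kept: at the shared promoter of ARHGAP1 and ZNF408, at 97040 bp, and 884 bp before the start of F2, the prothrombin gene. The peak at 97040 bp was the strongest of the window, at place 5966 (9.98%) in WT and 7847 (18.3%) in K/D. In K/D cells the peak nearest to the ATG13 start lay 59756 bp upstream of it, outside the window.

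RB1CC1 lies on chromosome 8, minus strand (chr8:53535018-53658403, 123 kb), and its gene record reaches upstream of the protein-coding starts used here. Its window held 3 WT peaks and 2 K/D peaks. A peak 18902 bp after the TSS in intron 1 was at place 9025 (15.1%) in WT and 3930 (9.16%) in K/D. A second, 50039 bp before the TSS, was the strongest WT peak of all 28, at place 3500 (5.85%), and was at place 7185 (16.8%) in K/D. The peak 39976 bp before the TSS, at place 47754 (79.9%), was called in WT only.

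ATG101 lies on chromosome 12, plus strand (chr12:52463030-52471279, 8.25 kb), and is the shortest of the 5 genes. Its intron 3 held a DAXX peak 5535 bp after the TSS in WT and 5537 bp after it in K/D, at place 8858 (14.8%) and 4386 (10.2%). The peak began at the base after the end of an H3(Lys4) region in WT, a gap of 0 bp, and overlapped a region in K/D cells. Upstream, 3 WT peaks lay at NR4A1, which encodes an orphan nuclear receptor. Of these the one 252 bp before an NR4A1 start was kept (place 27343, 45.7%, and 27934, 65.1%). The others, 671 bp before another NR4A1 start (place 17879, 29.9%) and in an NR4A1 intron (place 56026, 93.7%), were called in WT only. A WT-only peak in an intron of SMIM41 and a K/D-only peak 46700 bp after the ATG101 TSS made up the rest.

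**Figure D2:**
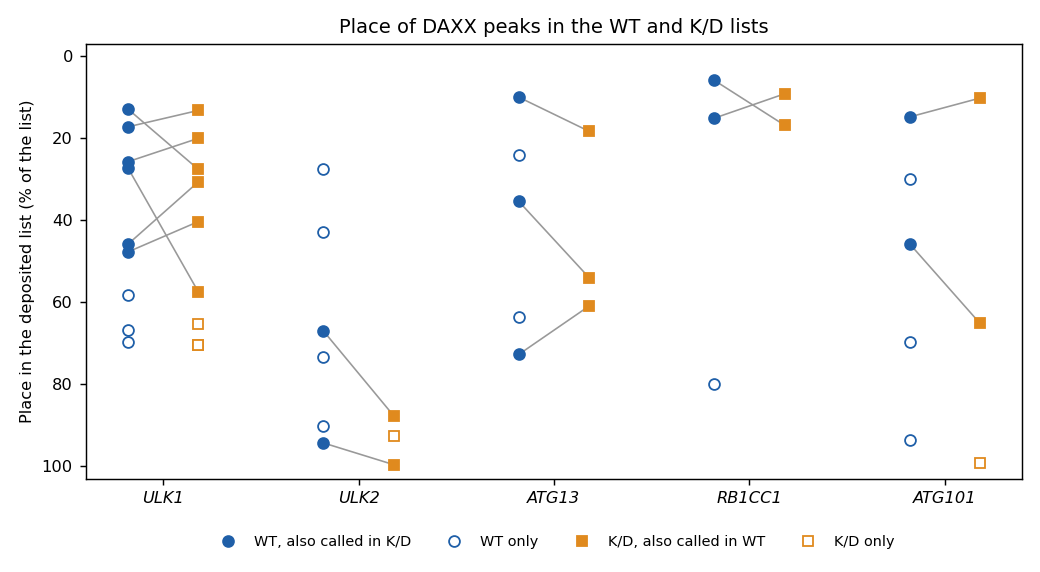
Place of each DAXX peak in the deposited list, as percent of the list on the y axis with strong peaks at the top, for WT (circles) and K/D (squares) at the 5 genes. Lines join the 15 peaks called in both cells and open symbols were called in one, and the 13 WT-only peaks lie between 24.1% and 93.7% and the 5 K/D-only peaks between 65.3% and 99.3%.

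Across the 5 genes, 15 of 28 WT peaks (53.6%, interval 33.9 to 72.5) were called in K/D, beside 48.4% of all WT DAXX peaks and 51.1% for the strata of the list (10% each) that the 28 came from. In the other direction 15 of 20 K/D peaks (75%, interval 50.9 to 91.3) were called in WT, beside 67.4% of all K/D DAXX peaks and 66.7% for their strata. Both intervals contain the share of all peaks. The 28 and 20 peaks were 0.0469% and 0.0466% of their lists, so the lower number in K/D cells went with the shorter list. When the WT list was shortened to the length of the K/D list, the genes held 22 WT and 20 K/D peaks.

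Kept peaks stood higher in the WT list than WT-only ones. Of the 15 kept peaks 12 were in the first 50% of the WT list (median place 27.3%), against 4 of the 13 WT-only peaks (median 66.7%). Of the 20 K/D peaks, 9 of the 15 kept and 0 of the 5 K/D-only peaks were in the first 50% of the K/D list. In the whole WT list the share called in K/D fell from 93.7% in the first 10% of places to 15.5% in the last 10%. The WT-only peaks had their nearest K/D peak 618 to 51379 bp away.

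A WT DAXX peak was called in the window of all 5 genes, as in 85.3% of protein-coding genes, and the same held in K/D cells, beside 81.3%. Inside the gene a WT peak was found in 4 of 5 members, ULK2 being the exception (48.3% of all genes), and a K/D peak in 3 of 5, namely ULK1, RB1CC1 and ATG101 (41.6% of all genes). Within 10 kb of a TSS only ULK1 and ATG101 had a DAXX peak, 2 of 5 in WT (51.3% of all genes) and 2 of 5 in K/D (41.9%). These are shares of 5 genes, and longer genes have more room for a peak.

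From the start to the nearest WT DAXX peak the order was ULK1 (1576 bp), ATG101 (5535 bp), RB1CC1 (18902 bp), ULK2 (30220 bp) and ATG13 (31684 bp). In K/D cells ULK1 (224 bp), ATG101 (5537 bp), RB1CC1 (18969 bp), ULK2 (30207 bp) and ATG13 (59756 bp) came in the same order. With 1 library a cell the spread of these distances could not be estimated, so neighbours in the order cannot be ranked apart. The middle of the 5 distances was 18902 bp in WT and 18969 bp in K/D, against medians of 9220 and 15495 bp over all genes. A nearer WT peak was found in 29.5% of genes for ULK1, 42.6% for ATG101, 63% for RB1CC1, 72.2% for ULK2 and 73.1% for ATG13. With the first 50% of each list the order changed. ATG101 was then first (5535 bp in WT, 5537 bp in K/D), and ULK1 lay at 18062 and 18064 bp. ATG13 lay at 59746 and 59756 bp, ULK2 was last at 114857 and 195817 bp, and RB1CC1 was as before. A peak within 10 kb was then found for 1 of 5 genes in each cell. The share of all genes was not computed for these shortened lists, so this count has no background. When the starts of all annotated transcripts were used in place of basic protein-coding ones, the nearest WT peak came to 557 bp from a start of ATG13, 3759 bp from one of ULK2 and 8568 bp from one of RB1CC1, so that 5 of 5 genes (3 of 5 in K/D) had a peak within 10 kb, beside 58.8% and 49.9% of all genes.

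**Figure D3:**
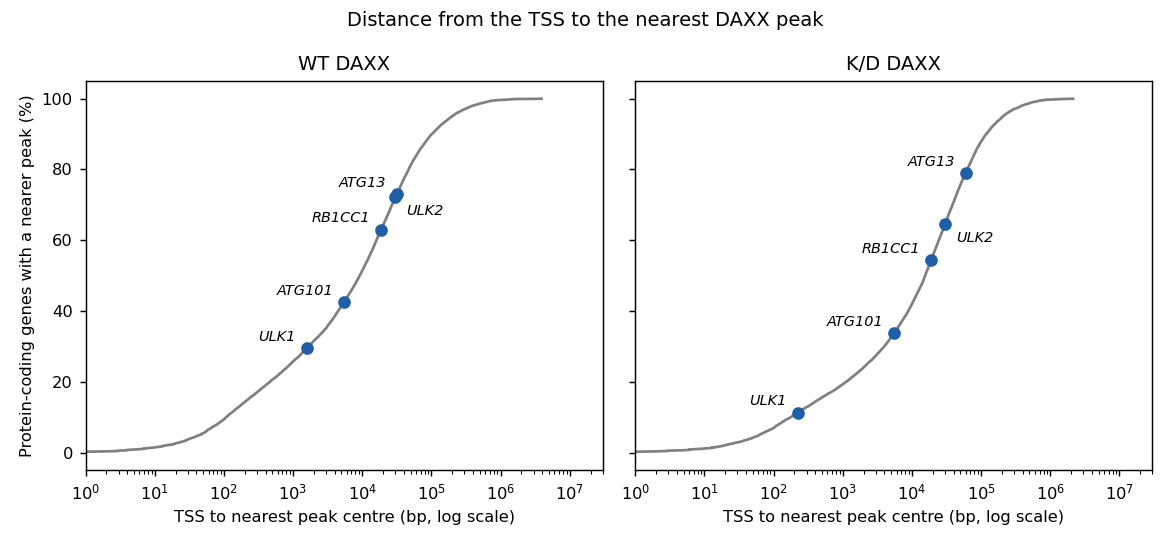
Distance from the TSS to the nearest DAXX peak in bp on a log axis, against the percent of protein-coding genes with a nearer peak, in WT (left) and K/D cells (right). The grey curve is all genes and the points are the complex genes, which span the range from ULK1 at 29.5% to ATG13 at 73.1% in WT and from 11.3% to 79% in K/D.

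DNMT1 was called once in the 5 windows. The WT peak (chr12:132424905-132425033, place 2206 of 2237) lay 45802 bp after the ULK1 start in an intron of PUS1. No WT DAXX peak overlapped it, whereas the K/D-only DAXX peak at chr12:132424915-132425085 did. A WT DNMT1 peak was present in the window of 11.4% of protein-coding genes and a K/D one in 4.07%, so 1 of 5 and 0 of 5 members rest on very few peaks. The DNMT1 libraries yielded 2234 WT and 595 K/D peaks on the main chromosomes, and absence of DNMT1 at the complex genes was not shown by these lists.

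H3(Lys4) regions were called within 1 kb of the start of all 5 genes in both cells. This was true of 58% of all protein-coding genes in WT, of 55% in K/D and of 45.6% in both. The width of the region at the start was 1262 bp in WT and 1304 bp in K/D at ULK1, and 905 and 1011 bp at RB1CC1. These differed little beside the spread over genes, whose middle 50% had a log2 ratio of K/D to WT width between -1.17 and 0.26, with a median of -0.37 over 9040 genes. At ULK2 the region was 1666 bp in WT and 1151 bp in K/D, a log2 ratio of -0.53.

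ATG13 and ATG101 lay outside that middle range in opposite directions. The ATG13 region was 948 bp wide in WT and 1995 bp in K/D (log2 ratio 1.07, higher than in 91.3% of genes), and its place went from 19669 to 4859. The ATG101 region was 1691 bp in WT and 640 bp in K/D (log2 ratio -1.40, higher than in 19.6% of genes), and its place went from 8882 to 26039. Widths depend on where single libraries passed the calling limits, and the share of tags inside regions was lower in the K/D library (15.07%) than in the WT one (23.94%). These 2 genes were pointed out after their values were seen.

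Over the windows 42 regions were called in WT and 34 in K/D. Of the WT regions 23 (54.8%, interval 38.7 to 70.2) overlapped a K/D one, beside 45.8% of all WT regions, and 23 of the 34 K/D regions (67.6%, interval 49.5 to 82.6) overlapped a WT one, beside 48.2% of all K/D regions. The K/D interval began above the share of all regions but included the 51.5% of the strata of the list that its regions came from, and the WT interval included 45.8%. By gene the WT and K/D counts were 15 and 12 at ULK1, 6 and 6 at ULK2, 7 and 9 at ATG13, 5 and 2 at RB1CC1, and 9 and 5 at ATG101.

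The length covered by these regions went from 13463 bp in WT to 12379 bp in K/D at ULK1 and from 7112 to 4683 bp at ULK2, with 898 and 1032 bp per region at ULK1 and 1185 and 780 bp at ULK2. At ATG13 it was 5153 bp in WT and 12128 bp in K/D, a ratio of 2.35 against a median ratio of 0.769 over 17334 genes, with 736 and 1348 bp per region. Most of this difference was at the promoter of AMBRA1, a regulator of the Beclin 1 complex that neighbours ATG13, where a WT region of 501 bp (place 32800) faced a K/D region of 4817 bp (place 871). At ATG101 the length was 12058 bp in WT and 4809 bp in K/D, a ratio of 0.399. There 2 broad WT regions at NR4A1, 2982 bp and 2601 bp wide, had no overlapping region in K/D cells. RB1CC1 had 4077 bp in WT and 1512 bp in K/D, a ratio of 0.371, and its WT region of 1490 bp at the kept upstream DAXX peak was not called in K/D.

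**Figure D4:**
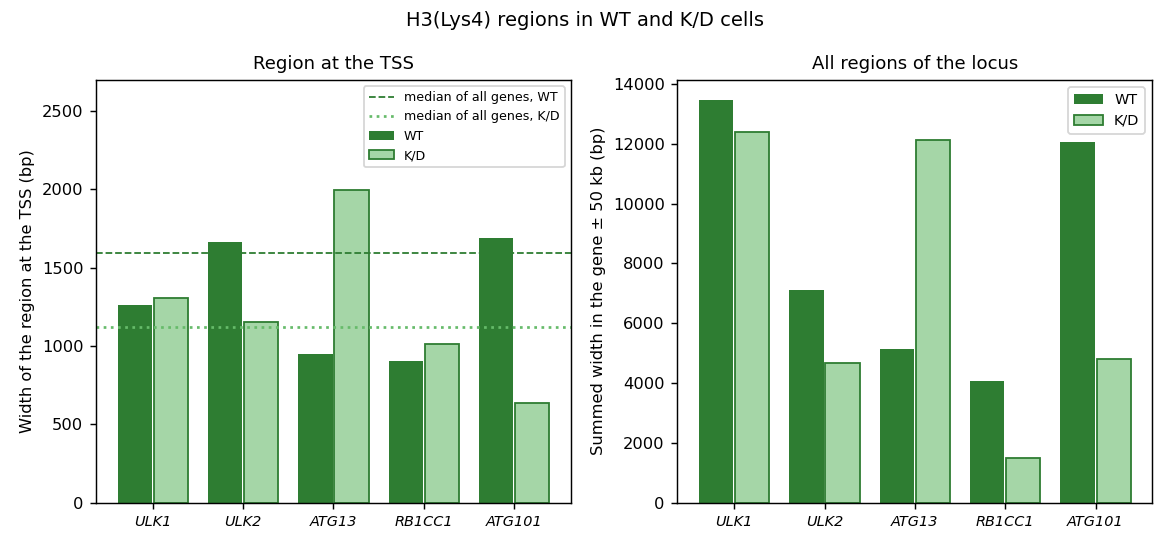
Width in bp of the H3(Lys4) region at the TSS (left, with the medians over 9040 genes as lines) and summed width in bp of all regions in the window (right) for the 5 genes in WT and K/D cells, 1 library per bar. ATG13 is wider in K/D on both panels (1995 against 948 bp at the TSS) and ATG101 is wider in WT (1691 against 640 bp).

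WT DAXX peaks of the complex genes lay on a WT H3(Lys4) region in 16 of 28 cases, beside 37.4% of all WT DAXX peaks. K/D DAXX peaks lay on a K/D region in 8 of 20 cases, beside 28.7%. The complex peaks were taken from windows around genes that all had an H3(Lys4) region at their start. The shares of all peaks are over the whole genome, and none was computed for the windows of other genes. Whether DAXX peaks lay on H3(Lys4) more often at the complex than at other such genes was therefore not tested. Of the WT peaks, 9 of 16 on H3(Lys4) and 6 of 12 off it were called in K/D, beside 45.8% and 49.9% of all WT peaks on and off it.

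The DAXX peaks of the complex genes were richer in G and C than the list as a whole, with a median GC content of 55.8% in WT (range 32.9 to 79.2) against 44.5% over all WT peaks, and 55.9% against 44.4% in K/D. SP1 letters (GGGCGG, either strand) were in 8 of 28 WT peaks and 6 of 20 K/D peaks, while 7.76% and 7.31% of all peaks of the lists hold them. Of the 7 WT peaks at a promoter 5 held SP1 letters and 0 held AP-1 letters. Promoter peaks were 7 of 28 in WT and 6 of 20 in K/D, beside 7.05% and 7.13% of all peaks. All 7 WT promoter peaks were at neighbouring genes, and the WT peaks with SP1 letters were in the windows of ULK1, ATG13 and ATG101 only. The complex peaks come from windows around genes and the lists from the whole genome, and no share for the windows of other genes was computed. The part of GC content, of promoters and of the choice of windows in the SP1 count was not tested.

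AP-1 letters (TGAGTCA or TGACTCA) were in 10 of 28 WT peaks, beside 34.9% of all, and in 11 of 20 K/D peaks, beside 33.9%. They were in 7 of the 15 kept and 3 of the 13 WT-only WT peaks, and in 7 of the 15 kept and 4 of the 5 K/D-only K/D peaks. No share over all peaks was computed for kept and unkept peaks apart, so these small counts have no background to be read against. All 3 WT peaks of RB1CC1 and the ULK2 upstream peak held AP-1 letters. A nuclear receptor half-site was in 6 of 28 WT peaks (20.4% of all) and in 5 of 20 K/D peaks (24.4%), and RUNX letters in 5 of 28 (18.3%) and 4 of 20 (17.5%). ETS letters (CCGGAAG) were in 1 of 28 WT peaks (1.88% of all) and 3 of 20 K/D peaks (1.78%), and the E-box CACGTG in 2 (2.05%) and 1 (2.04%). None of the 28 and 20 peaks held the CRE letters TGACGTCA, the NRF1 letters GCGCATGC or the CTCF consensus, which were in under 1% of all peaks of each list. Such matches describe the letters in a peak and not a bound factor.

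The 50 other autophagy genes, in 8 lists, were set beside the complex. DAXX was called within 10 kb of a start in WT cells for 34 of them, in K/D cells for 30 and in both for 26, against 2 of 5 complex genes in each cell and 51.3% (WT) and 41.9% (K/D) of all genes. With the starts of all transcripts these became 43 of the 50 beside 5 of 5 complex genes in WT, where the complex was no longer lower, and 39 beside 3 of 5 in K/D. With lists of equal length 26 of the 50 had a peak in WT and 30 in K/D, so the higher WT count held only with the longer WT list. The share of all genes was not computed for the shortened WT list. By list the WT and K/D counts were 12 and 9 of 14 for the genes of AMPK, mTORC1, RHEB, TSC1 and TSC2, 0 and 0 of 3 for ULK3, ULK4 and STK36, 3 and 2 of 4 for ATG9 and ATG2, and 3 and 4 of 8 for the class III PI3-kinase complex, which acts next after ULK1. They were 3 and 2 of 4 for the WIPI proteins, 7 and 5 of 7 for the ATG12 and ATG8 conjugation enzymes, 5 and 5 of 6 for the ATG8 proteins and 1 and 3 of 4 for the ATG4 proteases. The strongest WT peaks within 10 kb of a start were at place 444 for PRKAG2, an AMPK subunit, at place 2873 for ATG2A, a lipid transfer protein, and at place 5042 for ATG16L2. Next within their lists came TSC2 and PRKAB1, ATG9B and ATG2B, PIK3C3, UVRAG and RUBCN, WIPI1, WDR45 and WDR45B, ATG16L1 and ATG7, MAP1LC3B, GABARAPL1 and GABARAP, and ATG4D, with places from 6754 (TSC2) to 52046 (RUBCN). At MTOR itself the nearest peak lay 5335 bp before the TSS in WT (place 44220) and 127435 bp after it in K/D. That WT peak stood past the 42894 places of the K/D list, and a loss of DAXX at MTOR was not shown.

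The genes with the most similar pattern were found over the 6 lists by the Euclidean distance of log10(distance from TSS to nearest peak + 100 bp), leaving out genes within 100 kb. They were BCL2L11 and ZBED4 for ULK1 (0.411 and 0.465), ORC3 and RARS2 for ULK2 (0.0592 and 0.0993), WDTC1 and TMX1 for ATG13 (0.253 and 0.275), LRRC63 and LGMN for RB1CC1 (0.221 and 0.261), and DDX11 and PTPN1 for ATG101 (0.245 and 0.266). Among the complex genes ULK2 and RB1CC1 were the most alike (0.687), and ULK1 and ATG13 the least (3.14).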

How the data were processed

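ChIP-Seq peak lists of 6 immunoprecipitations in PC3 cells were used, 1 per antibody and cell, and groups were taken from the sample titles. Per the labels and methods, the authors used CASAVA 1.8.2 for base calls, Bowtie2 2.1.0 for alignment to hg19, with uniquely mapped reads kept, and HOMER 4.6 for peaks. Per the file headers, each list was called against its input with a 4-fold excess, a Poisson p-value limit of 0.0001 and a 4-fold excess over the surrounding 10000 bp, and the tag directories are named for an old and a new run. DAXX and DNMT1 peaks have a fixed width per list and H3(Lys4) regions a variable one, so their numbers are not comparable. The values used are the start and end positions the authors deposited, and the deposited score column holds 1 value for all peaks.

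The autosomes, X and Y were used, while 113 peaks elsewhere were dropped. Genes came from GENCODE release 44 on GRCh37, with 63781 starts of basic protein-coding transcripts, and sequence from the GRCh37 genome. Peaks were shared when at least 1 bp was in common. Shares have exact (Clopper-Pearson) 95% intervals. Percentiles of distance are over the 19747 genes on chromosomes with DAXX peaks. The text names all 5 members, the genes in their windows or nearest to their peaks, the first genes of each other autophagy list by place in the WT list, and the 2 genes most like each member. MTOR and the ULK-like kinases were added as genes of the lists. The members and lists were chosen with earlier results of these data known. Python 3.11.15, NumPy 2.4.6, pandas 2.3.3, SciPy 1.17.1, pysam 0.24.0, samtools 1.23.1 and Matplotlib 3.10.9 were used. The functions for overlap, distance and windows were tested on simulated intervals. Alternatives were another overlap rule, the first 50% of each list, a window of 10 kb, lists of equal length, the starts of all transcripts and 2 kb from a TSS.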

Additional observations from a re-analysis of the deposited data

How the results depend on the processing

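No paired analysis was possible because each group had 1 library. For the same reason no replicate could be left out. Of 89 values recomputed under the alternatives, 44 stayed and 45 moved, where a count stayed if it was within 1.5 times the reported one and a distance, which has no spread, only if it was identical. Lists of equal length moved 1 value, the WT DNMT1 peak, which was absent from the shortened list (0 peaks). The counts of other autophagy genes with a DAXX peak within 10 kb stayed within 1.5 times, but their order was turned, with 26 in WT and 30 in K/D. In this setting the longer list was cut to the length of the shorter one. Values from the K/D DAXX, K/D DNMT1 or WT H3(Lys4) list alone could therefore not move. DNMT1 counts of 0 could not move in shortened lists either. The 44 values that stayed thus include some fixed in advance.

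With the first 50% of each list the genes held 16 WT and 9 K/D DAXX peaks with 9 in common, no DNMT1 peak (0), and H3(Lys4) regions numbered 20 in WT and 22 in K/D with 10 in common, 10 WT DAXX peaks lay on H3(Lys4), and 18 other autophagy genes in WT and 18 in K/D had a peak within 10 kb. The order of WT and K/D H3(Lys4) counts was thus turned. For the counts of genes with a peak within 10 kb, the share of all genes was not computed with these shortened lists. With a window of 10 kb there were 8 WT and 6 K/D DAXX peaks with 5 in common, no DNMT1 peak (0), H3(Lys4) regions numbering 16 in WT and 14 in K/D with 10 in common, and 5 WT DAXX peaks on H3(Lys4). With centres within 100 bp, 3 H3(Lys4) regions were shared and 4 WT DAXX peaks lay on H3(Lys4), and with 50% of each peak in common 11 and 0, the latter because no narrow peak can cover 50% of a broad region. Starts of all transcripts moved the median distance to 3759 bp in WT and 5495 bp in K/D. Within 2 kb of a TSS, 22 (WT) and 17 (K/D) of the 50 other autophagy genes had a peak, beside 31.5% and 24% of all genes. Of the complex genes 1 of 5 had one in each cell.

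Counts of DAXX peaks shared between the cells were 15 and 14 under the other overlap rules and 13 with lists of equal length. Ranks are less certain for H3(Lys4), since peak numbers followed the order of the list with a median Spearman correlation of 0.589 in WT and 0.605 in K/D, against 0.995 and 0.991 for DAXX. Strength per peak is not in the lists, and depth limits peaks near the calling limit.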
